A study of Mus musculus with 12 samples.

Results

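The genes described here are the Pax, Gata, Tbx, Nkx and Fox transcription factors of the mouse. They were chosen by symbol alone, as the protein-coding genes named Pax, Gata, Tbx, Nkx or Foxa to Foxs followed by a number, leaving out 1 Fox gene. No measured value enters that rule, but the families were picked with earlier results of these data known. The rule gave 85 of the 21883 protein-coding genes on chromosomes 1 to 19, X and Y, of which 43 were Fox, 14 Nkx, 13 Tbx, 9 Pax and 6 Gata genes. Open chromatin at these genes was read from peak lists of ATAC-seq, an assay in which a transposase cuts accessible DNA and tags it for sequencing. The nuclei came from neurons of the infralimbic prefrontal cortex (ILPFC) that were sorted for NeuN, a neuronal protein, and Arc, an immediate early gene product of recently active neurons. All mice were C57BL/6 males aged 10 to 12 weeks, with no genetic change named in the labels. Every animal, controls included, had been fear conditioned with 3 pairings of a tone and a foot shock. The extinction group (EXT) was given 60 tones without shock in another context 1 day later, whereas the retention control group (RC) stayed there equally long without tones. Each library held 50000 cells from tissue of 5 pooled mice, which makes each replicate a pool of mice.

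Pax, Gata, Tbx, Nkx and Fox proteins bind DNA through paired, zinc finger, T-box, homeobox and forkhead domains, and most are switched on in restricted lineages of the embryo, where they fix tissue identity. In cells of other lineages many of their genes are held silent by Polycomb complexes, which mark histones over broad CpG-rich stretches. A smaller number, among them the Foxo genes under insulin signalling, stay in use in mature cortical neurons.

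Each gene was placed in a class from textbook expression, with earlier results of these data known, so the classes are not independent of the data. The cortical class held 7 genes (among them Foxp1, Foxp4, Foxo1, Foxo3, Foxo6 and Pax6) and the widely expressed class 7 (Foxj2, Foxj3, Foxk1, Foxk2, Foxn2, Foxn3 and Foxo4). Another 20 genes act in other parts of the nervous system and were called other neural. There were 7 genes of brain glia, ependyma or vessels, 37 non-neural genes, and 7 left unclassified.

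The complete peak lists were those of the third RC library and the first and second EXT libraries, and values below follow that order. The list called EXT replicate 2 here is the second by its sample title, whereas its file header numbers it 3. Their totals were 73.8 M, 65.0 M and 57.7 M tags, with 97961, 80735 and 123375 peaks. The lists of RC replicates 1 and 2 stop within chromosome 1, at positions 166286196 and 37624379. With 1 complete RC list no test between RC and EXT was possible. Intervals of shares below are exact (Clopper-Pearson) 95% binomial intervals over genes, and those of differences between classes are Newcombe 95% intervals. Both kinds cover counting error only. Genes are not replicates of a condition. A weak peak in all sorted cells and a strong peak in a few of them cannot be told apart in pooled material. Among neuronal marker genes, 6, 5 and 5 of 7 had a peak at a gene end, against 1, 1 and 1 of 5 astrocyte, 1, 2 and 1 of 5 microglial, 2, 2 and 3 of 6 oligodendrocyte, 2, 1 and 2 of 5 endothelial, 2, 0 and 2 of 5 mural or fibroblast and 1, 1 and 0 of 5 erythroid markers. The microglial genes Cx3cr1, P2ry12, Tmem119 and Csf1r had no end peak wider than 160 bp in any of the 3 lists. The other microglial marker, Spi1, had one in each list. Of the 7 neuronal markers 5, 4 and 5 had one. Gad2 lacked it in every list, Rbfox3 in RC replicate 3 and EXT replicate 1, and Gad1 in both EXT lists.

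An end peak was a peak that overlapped the 1 kb either side of the lower or upper end of the gene. Of the 85 genes, 50, 43 and 55 had one (58.8%, 95% interval 47.6 to 69.4; 50.6%, 39.5 to 61.6; and 64.7%, 53.6 to 74.8). Among all protein-coding genes the shares were 56.0%, 53.3% and 61.1%, within the interval of the 85 genes in each list. At starts alone the genes with a RefSeq start window lay lower. Only 59 of the 85 (69.4%) have one, under the 80% set as the minimum for a check. The start values below thus hold for those 59 genes and not for the whole set. Within 1 kb of the 5′ end a peak was found at 40.7%, 37.3% and 47.5% of the 59 genes with a RefSeq start window, against 52.0%, 50.0% and 56.4% of all protein-coding genes with one. In the start window itself, 250 bases before to 50 after the start, 11, 11 and 13 of the 59 had a peak (18.6%, 18.6% and 22%), against 46.8%, 44.9% and 53.0% of 17491 genes. The picture also changed with the width of the peaks. Peaks of exactly 160 bp were the most frequent width in each list, 19594, 13358 and 16729 of them, and 31.9%, 30.6% and 24.7% of all peaks were no wider. An end peak wider than 160 bp, called wide below, was found at 30, 26 and 41 of the 85 genes. Those are 35.3% (25.2 to 46.4), 30.6% (21.0 to 41.5) and 48.2% (37.3 to 59.3), against 50.8%, 48.3% and 57.5% of all protein-coding genes. The shares of these regulators were thus 15.5, 17.7 and 9.23 percentage points under those of all genes, and in EXT replicate 2 the interval still took in the level of all genes.

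Across lists, 37 genes (43.5%) had an end peak in all 3, against 49.0% of all protein-coding genes, and 25 (29.4%) had none in any list, against 35.5%. Wide end peaks in all 3 lists were found at 24 genes (28.2%), against 44.3%. Among the 24 were the cortical Foxo1, Foxo3, Foxo6 and Foxp4, the widely expressed Foxj2, Foxj3, Foxk2 and Foxn2, the other neural Foxb2, Foxd3, Nkx1-1, Nkx2-4 and Pax7, the glial or vascular Foxc1 and Foxj1, the non-neural Foxa3, Foxe1, Foxf1, Foxh1, Foxl2 and Tbx6, and the unclassified Tbx10.

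**Figure D1:**
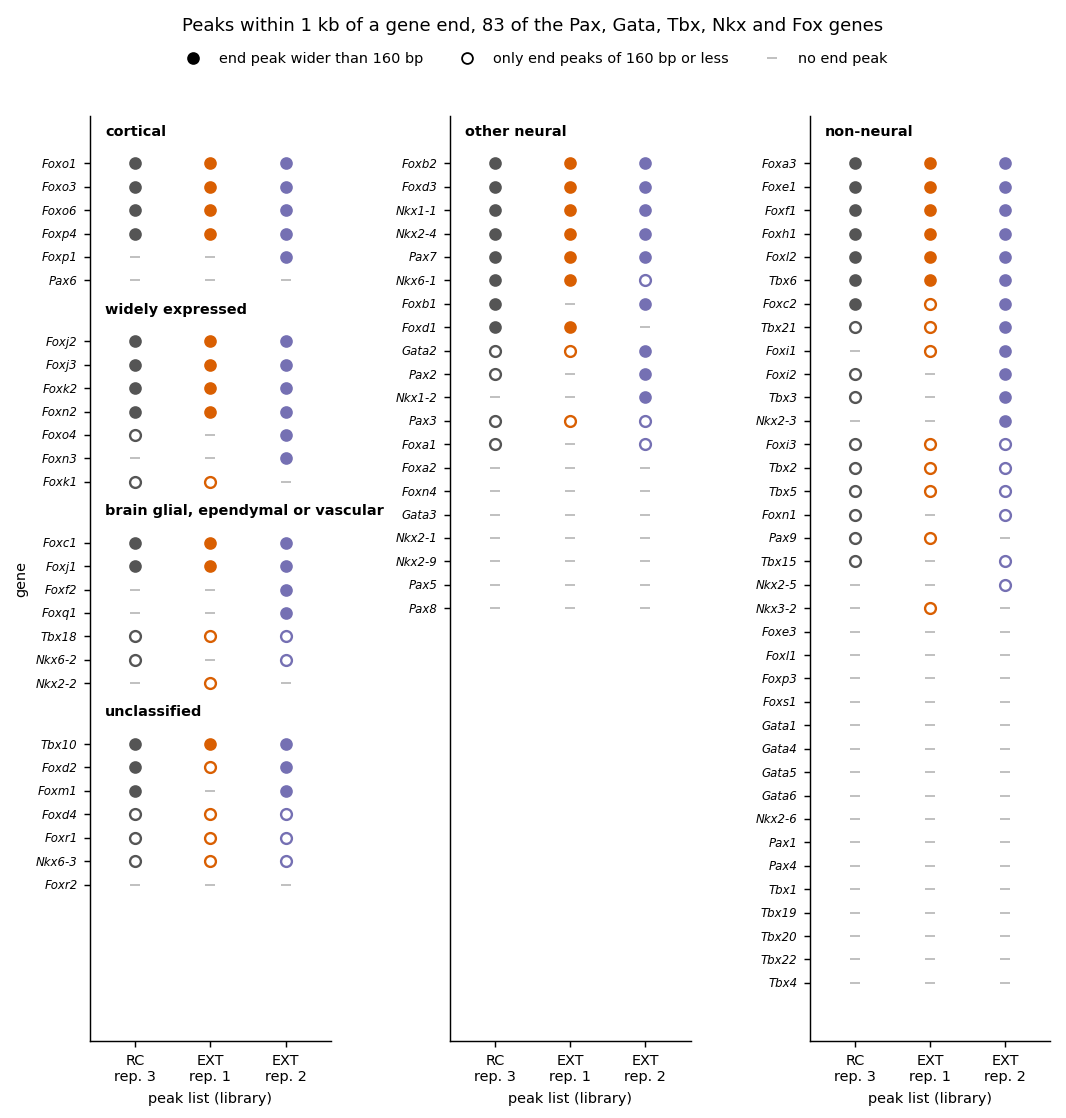
83 of the 85 genes (vertical, grouped by class) in the 3 complete peak lists (horizontal); filled circles are genes with a wide end peak, open circles genes whose end peaks are all 160 bp or less, dashes genes without an end peak. Of the 6 cortical genes drawn 4 have filled circles in all 3 lists, and 16 of the 37 non-neural genes have dashes throughout.

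The cortical genes had end peaks at 5, 5 and 6 of 7 genes, and every one of those genes had a wide end peak. Foxo3, which acts under insulin and stress signalling, had the end peak with the highest −log10 q of the class in each list, though in EXT replicate 1 Foxo1 and Foxp4 had a higher fold. Its best end peak was 1333, 946 and 880 bp wide, with the authors' fold enrichment over local background of 9.32, 7.39 and 10.1 and a percentile of 99.6, 99.0 and 99.4 within its list (by −log10 q, with 100 the strongest peak). This peak lay upstream of the annotated start, and a second one, 294, 413 and 395 bp wide, covered the start itself at fold 3.35, 3.08 and 4.27. Foxo6, a Foxo gene of the adult brain, had a peak of 601, 577 and 650 bp at fold 7.90, 4.43 and 7.23. At Foxo1 the width was 211, 411 and 469 bp and the fold 7.17, 11.9 and 8.14. Foxp4, a forkhead repressor, had its best end peak at the start, 401, 305 and 437 bp wide, with fold 5.43, 7.56 and 9.70. For each of these 4 genes all 3 libraries had a peak, and the order of the libraries by fold differed from gene to gene.

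The start regions of Foxo3 and Foxp4 are shown because they were the cortical genes with the highest peak percentile among those whose annotated start was covered in all 3 lists. Both are RefSeq promoter windows of assembly GRCm38.p6 (mm10), from 250 bases before to 50 bases after the start, on the minus strand and written 5′ to 3′. Capitals mark the bases that lay in a peak in all 3 libraries, 219 of 300 at Foxo3 (chr10:42276646-42276945) and 273 of 300 at Foxp4 (chr17:47924583-47924882).
Foxo3: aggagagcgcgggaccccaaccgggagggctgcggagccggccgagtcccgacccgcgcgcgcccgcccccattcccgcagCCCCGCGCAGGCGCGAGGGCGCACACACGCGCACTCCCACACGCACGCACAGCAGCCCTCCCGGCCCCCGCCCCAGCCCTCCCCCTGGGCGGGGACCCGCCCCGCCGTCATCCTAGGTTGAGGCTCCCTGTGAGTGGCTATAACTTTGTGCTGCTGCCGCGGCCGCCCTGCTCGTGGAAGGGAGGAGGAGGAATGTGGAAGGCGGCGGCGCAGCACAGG
Foxp4: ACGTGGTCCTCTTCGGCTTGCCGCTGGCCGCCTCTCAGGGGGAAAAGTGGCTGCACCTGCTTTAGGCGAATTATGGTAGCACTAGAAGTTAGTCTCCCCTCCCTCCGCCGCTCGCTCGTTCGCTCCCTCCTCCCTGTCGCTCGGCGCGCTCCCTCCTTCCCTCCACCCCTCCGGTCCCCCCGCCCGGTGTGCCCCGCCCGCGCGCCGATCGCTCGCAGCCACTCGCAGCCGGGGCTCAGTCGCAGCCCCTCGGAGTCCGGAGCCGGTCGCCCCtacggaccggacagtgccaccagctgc
Both windows are rich in CpG, with 35 and 33 CpG dinucleotides and an observed to expected CpG ratio of 0.834 and 0.940.

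Other cortical genes differed. Foxp1, a forkhead repressor of several cortical layers, had an end peak in EXT replicate 2 only, where the best was 335 bp wide at fold 2.92. Of its 3 annotated starts, the one furthest inside the gene, at chr6:99028298, was covered in all lists, by peaks of 160, 160 and 243 bp at fold 6.05, 6.25 and 8.48. The peak had the same bounds, 99028283 to 99028442, in RC replicate 3 and EXT replicate 1. The gene spans 597 kb and held 57, 37 and 67 peaks. Pax6, which drives radial glial progenitors and is largely off in mature pyramidal neurons, had no end peak in any list, none over its 2 annotated starts, and 1, 0 and 4 peaks within its 29.5 kb.

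The widely expressed genes had end peaks at 6, 5 and 6 of 7 and wide ones at 4, 4 and 6. Foxn2 had a best peak of 160, 174 and 483 bp at fold 7.08, 8.31 and 10.2. Foxj3 had one of 160, 853 and 502 bp at fold 4.35, 5.66 and 8.10; the 853 and 502 bp peaks, and its only wide end peak in RC replicate 3, of 226 bp, also lay within 1 kb of an end of Frg2f1. In EXT replicate 2 it had another wide end peak, of 189 bp at fold 4.00, away from that neighbour. At Foxj2 the width was 378, 393 and 379 bp and the fold 4.22, 4.82 and 3.55. Foxk2, a forkhead regulator of metabolism, had peaks of 634, 164 and 697 bp at fold 2.30, 3.44 and 4.84. These 4 genes had a wide end peak in every list. Foxk1, the paralogue of Foxk2, had only a 150 bp end peak in RC replicate 3 and in EXT replicate 1, at fold 2.96 and 2.90, and none in EXT replicate 2. The fourth Foxo gene, Foxo4, had a 150 bp peak at fold 2.89 in RC replicate 3, none in EXT replicate 1 and a 421 bp peak at fold 7.57 in EXT replicate 2. Foxn3 had an end peak in EXT replicate 2 only, 327 bp at fold 3.86.

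Among the 20 other neural genes 12, 9 and 12 had an end peak and 8, 7 and 9 a wide one. For end peaks those are 60.0%, 45.0% and 60.0%, against 56.0%, 53.3% and 61.1% of all protein-coding genes. For wide ones they are 40.0%, 35.0% and 45.0%, against 50.8%, 48.3% and 57.5%. Nkx1-1, a homeobox gene of the embryonic brain and spinal cord, had the highest mean percentile, with a peak of 232, 232 and 229 bp at fold 12.1, 9.59 and 12.9. Foxb2 followed with 269, 161 and 161 bp at fold 14.6, 14.5 and 9.97. Nkx2-4, a hypothalamic gene, had 385, 375 and 382 bp at fold 9.10, 5.15 and 10.7, and Pax7 of the dorsal neural tube and muscle stem cells 464, 553 and 745 bp at fold 4.72, 5.10 and 8.80. These 4 genes had wide peaks at nearly the same place in each library. At Nkx1-1, Nkx2-4 and Pax7, on the minus strand, that place was near the lower end, opposite the start. Gata2, of blood progenitors and midbrain GABA neurons, had a peak of 160, 160 and 285 bp at fold 5.32, 5.94 and 8.79. This peak was near the upper end of a plus-strand gene, also opposite the start. Gata2 was the only Gata gene of 6 with an end peak. Pax5, Pax8, Gata3, Foxn4, Nkx2-1, Foxa2 and Nkx2-9 had none in any list. Nkx2-1 specifies the ventral forebrain that gives rise to cortical interneurons, and Pax5 the midbrain and hindbrain border. Of this class 18 of 20 genes had a RefSeq start window, and 2, 2 and 2 of the 18 (Pax2 and Nkx6-1) had a peak in it. Most genes of this class with both an end peak and a start window thus had the peak outside that window.

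The glial, ependymal and vascular genes had end peaks at 4, 4 and 6 of 7 and wide ones at 2, 2 and 4. Foxc1, of meninges and vessel walls, had a best peak of 174, 163 and 481 bp at fold 13.9, 10.8 and 17.2, and 4, 5 and 3 end peaks in all. Tbx18, a pericyte gene, had a 160 bp peak with the same bounds in all 3 lists, at fold 6.5, 4.67 and 15.3. Foxj1, the regulator of motile cilia, had peaks of 251, 152 and 745 bp at fold 3.38, 3.08 and 4.66, all of them also within 1 kb of an end of Rnf157. The part that non-neuronal cells in the sort may have in these peaks was not tested; the marker counts are given above.

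The 37 non-neural genes had end peaks at 17, 15 and 19 genes and wide ones at 8, 7 and 13. For end peaks those are 45.9%, 40.5% and 51.4%, against 56.0%, 53.3% and 61.1% of all protein-coding genes. For wide ones they are 21.6%, 18.9% and 35.1%, against 50.8%, 48.3% and 57.5%. Some of the highest folds of all 85 genes were found here, at peaks of 160 or 163 bp. Tbx5, a heart and forelimb gene, had a single 160 bp end peak with the same bounds in all lists (chr5:119796654-119796813) and fold 19.1, 12.1 and 39.1. Foxf1, of lung and gut mesenchyme, had a 163 bp peak with the same bounds throughout (chr8:121084836-121084998) at fold 21.8, 18.5 and 9.24. Both lie inside the gene, 140 and 450 bp from its lower end. Tbx21, which encodes T-bet of T helper cells, had peaks of 160, 160 and 260 bp at fold 11.7, 11.2 and 8.53, and Foxl2 of the ovary 204, 163 and 242 bp at fold 12.8, 8.43 and 8.34. Foxc2, a lymphatic regulator, had 430, 160 and 427 bp at fold 7.85, 7.08 and 6.70. Foxh1, the partner of Smad proteins in Nodal signalling, had a broad end peak in each list, with 511, 472 and 686 bp at fold 8.13, 5.28 and 10.9. That peak also lay within 1 kb of an end of Ppp1r16a. The wide end peaks of Foxa3 and Tbx6 were likewise within 1 kb of an end of Sympk and of Ypel3. Without these 3 genes, 5, 4 and 10 non-neural genes kept a wide end peak of their own.

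No end peak was found in any list at 16 non-neural genes. Among them were the heart genes Gata4 (72.8 kb), Tbx20 (53.5 kb) and Gata6 (33.1 kb), the hindlimb gene Tbx4, Tbx19 of pituitary corticotrophs and the palate gene Tbx22. The erythroid Gata1 and the regulatory T cell gene Foxp3 also had none. Of the 22 non-neural genes with a RefSeq start window, none had a peak over the start in all 3 lists, so no such start is shown. The windows of Tbx20 (chr9:24774254-24774553) and Tbx1 (chr16:18588850-18589149) are given instead, as the non-neural genes without end peaks whose CpG ratio was the highest among those with a RefSeq window. Both are on the minus strand and in lower case throughout, since 0 bases lay in a peak shared by the 3 lists.
Tbx20: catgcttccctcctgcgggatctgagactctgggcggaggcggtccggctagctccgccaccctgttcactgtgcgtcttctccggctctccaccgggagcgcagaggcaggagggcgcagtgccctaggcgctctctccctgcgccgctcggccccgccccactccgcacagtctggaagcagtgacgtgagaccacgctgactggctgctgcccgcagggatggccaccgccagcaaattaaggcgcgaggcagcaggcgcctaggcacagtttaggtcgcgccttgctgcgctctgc
Tbx1: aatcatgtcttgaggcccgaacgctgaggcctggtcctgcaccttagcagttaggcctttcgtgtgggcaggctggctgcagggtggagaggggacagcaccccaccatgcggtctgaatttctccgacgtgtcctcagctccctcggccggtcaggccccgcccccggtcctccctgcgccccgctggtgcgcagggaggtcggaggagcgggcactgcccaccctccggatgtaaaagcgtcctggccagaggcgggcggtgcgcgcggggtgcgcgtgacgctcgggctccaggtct
Each had 26 CpG dinucleotides and an observed to expected ratio of 0.745 and 0.729, below the 0.834 and 0.940 of Foxo3 and Foxp4. Other starts that no peak covered in any list had ratios above that of Foxo3, such as 0.871 at Foxi3 and 1.1 at Nkx2-4. None of the 4 printed windows held the forkhead motif TGTTTAC, the GATA motif AGATAA, the T-box motif GGTGTGA or the Nkx motif CAAGTG on either strand. These occur in 3.65%, 11.2%, 3.98% and 13.6% of all 32851 windows of that length. A comparison of CpG content over the whole set is void, because 59 of the 85 genes (69.4%) have a window in the RefSeq table.

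Of the 7 unclassified genes 6, 5 and 6 had an end peak and 3, 1 and 3 a wide one. Tbx10 had a peak of 552, 573 and 738 bp at fold 5.69, 3.39 and 8.67, also within 1 kb of an end of Nudt8. Foxd2 had peaks of 465, 160 and 433 bp at fold 8.09, 5.47 and 14.9. At Nkx6-3, Foxd4 and Foxr1 the best end peaks were 150 or 160 bp in all 3 lists, and Foxr2 had no peak anywhere in its span.

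Cortical genes more often had an end peak than non-neural genes, by 25.5, 30.9 and 34.4 percentage points, but the Newcombe 95% intervals, −13.4 to 50.7, −8.07 to 55.7 and −5.66 to 53.8, took in 0. For wide end peaks the difference was 49.8, 52.5 and 50.6 points (11.0 to 72.6, 13.8 to 74.9 and 10.2 to 68.3). The intervals cover counting error over 7 and 37 genes in 1 library each. The classes and the limit of 160 bp were chosen with earlier results of these data known. The differences are thus a description, and an interval that leaves out 0 is no test of them. Of the 7 cortical genes 6 are Fox genes, and families differed as well. The Fox genes had wide end peaks at 23, 19 and 29 of 43 (53.5%, 44.2% and 67.4%), against 50.8%, 48.3% and 57.5% of all protein-coding genes. The 95% interval of the Fox share took in the level of all genes in each list. The 42 Pax, Gata, Tbx and Nkx genes had wide end peaks at 7, 7 and 12 (16.7%, 16.7% and 28.6%). Within the Fox family alone the cortical less non-neural difference for wide peaks was 40.5, 47.6 and 42.9 points, from 5, 5 and 6 of 6 cortical and 6, 5 and 8 of 14 non-neural genes. Among non-neural genes of the other families 2, 2 and 5 of 23 had a wide end peak. Both the class and the family thus went with the share, and the cortical class outside the Fox family is Pax6 alone.

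**Figure D2:**
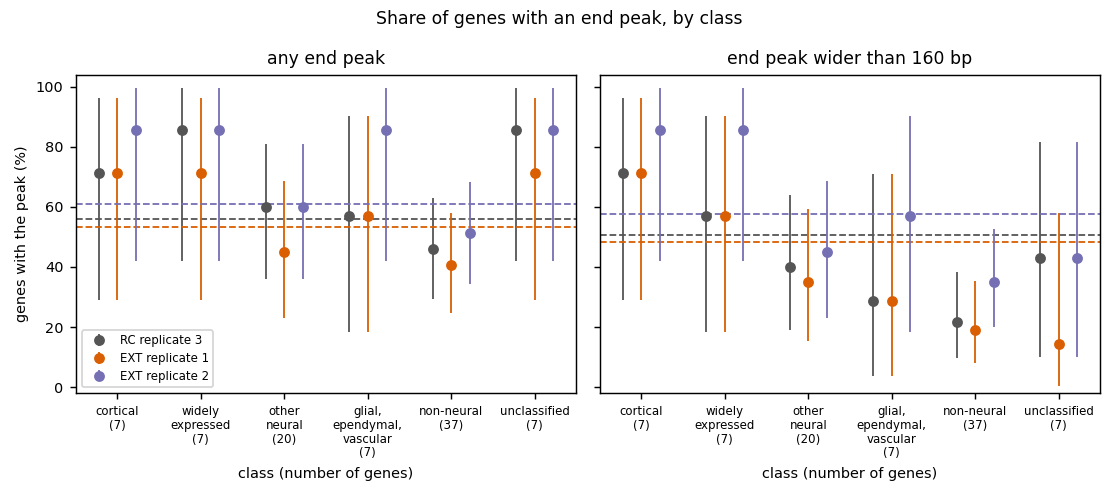
Percentage of genes in each class with any end peak (left) or a wide end peak (right) in the 3 lists; points are shares, bars exact 95% binomial intervals, dashed lines the shares among all 21883 protein-coding genes. For wide peaks the cortical points lie at 71.4%, 71.4% and 85.7% and the non-neural ones at 21.6%, 18.9% and 35.1%.

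Gene length moved with both classes. The median length was 57500 bp for cortical, 9334 bp for non-neural and 17170 bp for all protein-coding genes. Among genes shorter than 10 kb, 63.6%, 56.8% and 75% of the 44 regulators had an end peak against 42.6%, 39.8% and 45.6% of all genes, and for wide peaks the shares were 43.2%, 36.4% and 54.5% against 37.6%, 35.4% and 42.0%. Among genes of 10 kb or longer the order was the other way, with 53.7%, 43.9% and 53.7% of 41 regulators against 63.7%, 61.0% and 69.9%, and for wide peaks 26.8%, 24.4% and 41.5% against 58.3%, 55.6% and 66.3%. The shortfall in wide end peaks was thus found at the longer genes. Within genes of 10 kb or longer, 4, 4 and 5 of 6 cortical and 1, 1 and 3 of 17 non-neural genes had a wide end peak.

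The narrow end peaks had a form of their own. Genes whose end peaks were all 160 bp or less made up 20 of 50, 17 of 43 and 14 of 55 of the regulators with an end peak (40.0%, 39.5% and 25.5%), against 9.37%, 9.46% and 6.00% of all protein-coding genes with one. In the cortical class there were 0 such genes in every list, and in the non-neural class 9 of 17, 8 of 15 and 6 of 19. The median end peak of the regulators was 161, 163 and 238 bp wide, that of all protein-coding genes 345, 323 and 414 bp. Bounds identical to the base in at least 2 of the 3 lists were seen for 25 of 70, 16 of 63 and 16 of 77 end peaks (35.7%, 25.4% and 20.8%), against 11.6%, 9.44% and 5.70% for all genes. No end peak of a cortical gene had them. Per the file headers, the authors extended tags to 150 bp and kept all duplicate tags; the part of these settings in the narrow peaks was not tested. Several wide calls rest on peaks just over the limit, such as 163 bp at Foxf1 and Foxd1 and 161 and 162 bp at Nkx6-1 in RC replicate 3, while peaks of 160 bp at Tbx5, Tbx18 and Foxd4 fell just below it.

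**Figure D3:**
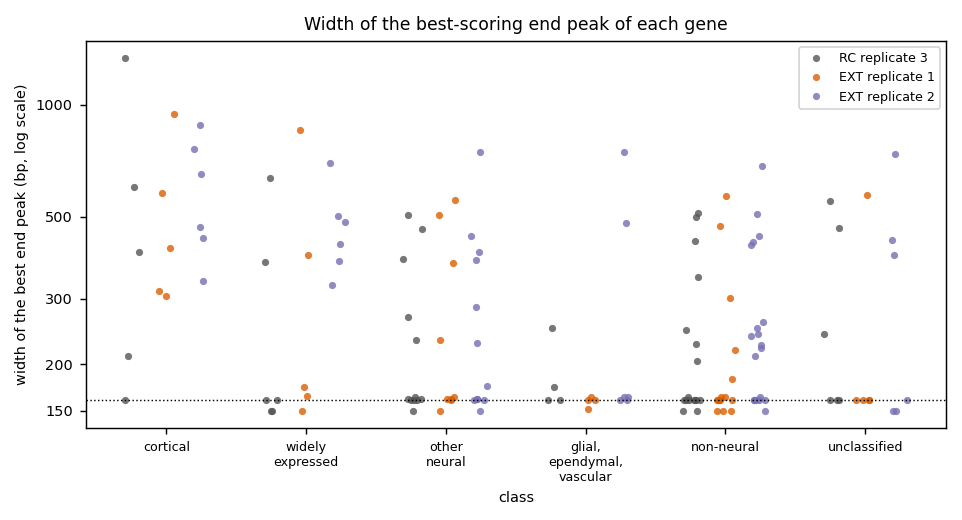
Width of the best end peak of each gene with one (vertical, bp, log scale) by class (horizontal) and library (colour), each point 1 gene in 1 list and the dotted line 160 bp. Cortical points reach 1333 bp, while many non-neural and other neural points lie on the line.

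A peak anywhere in the gene or 1 kb around it was found at 69, 61 and 74 of the 85 genes (81.2%, 71.8% and 87.1%), against 71.0%, 68.8% and 74.1% of all protein-coding genes. A wide peak there was found at 49, 40 and 60 genes (57.6%, 47.1% and 70.6%), against 64.7%, 62.8% and 70.1%. The span share was thus above that of all genes for peaks of any width in each list, and for wide peaks below it in RC replicate 3 and EXT replicate 1 and level with it in EXT replicate 2. Without any peak in the 3 lists were Nkx2-9, Nkx2-6, Foxs1, Gata5, Foxe3, Pax4 and Foxr2. Most peaks over the 3 lists were held by Foxp1 (161), Foxn3 (81), Foxk1 (31), Foxo3 (29) and Foxk2 (24, as many as Pax2). All but Pax2 are cortical or widely expressed. Because long genes hold more peaks, wide peaks were also counted per 100 kb in the 16 genes of 50 kb or longer, a limit chosen after the data were seen. Foxp1 had 7.17, 4.34 and 9.18 wide peaks per 100 kb, Foxo3 8.26, 6.20 and 9.29, and Foxk1 14.4, 11.2 and 17.6. Pax5, at 186 kb the longest gene of the other classes, had 1.06, 1.06 and 1.60, and Gata4 0, 0 and 1.34. The medians were 6.72, 5.47 and 9.18 for the 7 cortical and widely expressed genes, 0.863, 0.863 and 1.34 for the 9 others and 3.70, 3.19 and 5.17 for all 4944 protein-coding genes of that length. In each list the lowest of the 7, at 4.37, 3.58 and 4.37, lay above the highest of the 9, at 3.20 in each. All of the 7 are Fox genes and all of the 9 are Pax, Gata or Tbx genes, so class and family cannot be told apart here. Counting peaks of any width, the groups overlapped in every list, with 5.86 to 16.0, 3.58 to 14.4 and 7.16 to 19.2 peaks per 100 kb in the 7 and 1.34 to 8.54, 0 to 7.72 and 0 to 10.7 in the 9. Foxk2 and Foxn2, at 49.9 and 49.8 kb, fell just short of the limit and had 9.63, 9.63 and 17.3, and 3.86, 9.65 and 3.86. Shorter genes broke the separation. The cortical Pax6, at 29.5 kb, had 0, 0 and 3.17 wide peaks per 100 kb, and the non-neural Tbx19, at 22.9 kb, 8.02, 0 and 8.02.

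**Figure D4:**
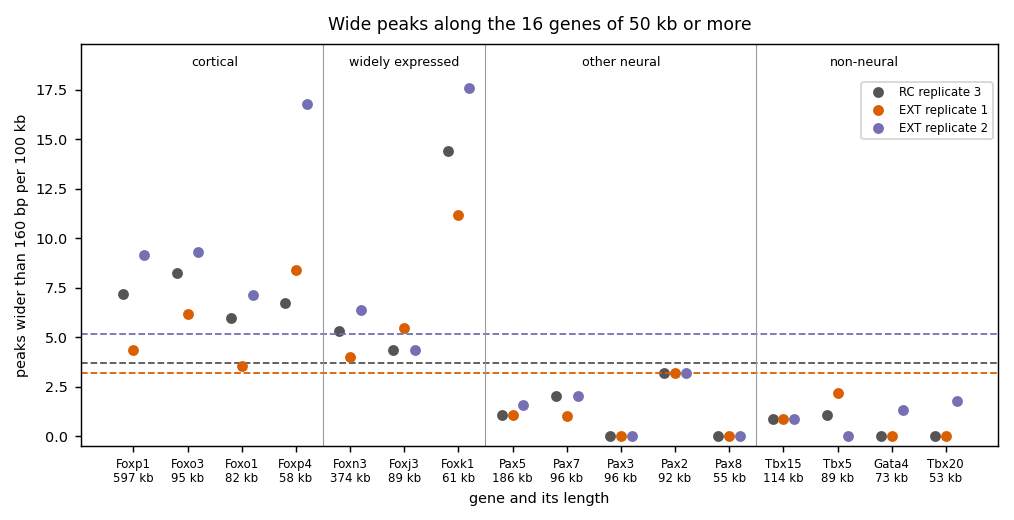
Wide peaks per 100 kb of gene (vertical) in the 16 genes of 50 kb or more (horizontal, with length), coloured by library; dashed lines are the medians of all protein-coding genes of that length. All 7 cortical and widely expressed genes lie above all 9 genes of the other classes in each list. The 7 are all Fox genes and the 9 all Pax, Gata or Tbx genes.

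The positions differed too. Along Foxp1 and Foxn3 the peaks were spread over the whole span, whereas Tbx15, a mesenchymal gene of 114 kb, had 1 wide peak in each list and narrow peaks near its lower end in RC replicate 3 and EXT replicate 2. Of the peaks in cortical genes 36.8%, 50.0% and 29.6% overlapped a peak in both other lists, and of those in non-neural genes 51.2%, 65.7% and 42.3%. Wide peaks made up 77.0%, 74.2% and 80.6% of the former and 48.8%, 42.9% and 61.5% of the latter. Foxp1 alone held 57, 37 and 67 of the 87, 62 and 108 peaks in cortical genes. The cortical shares thus rest largely on that gene.

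**Figure D5:**
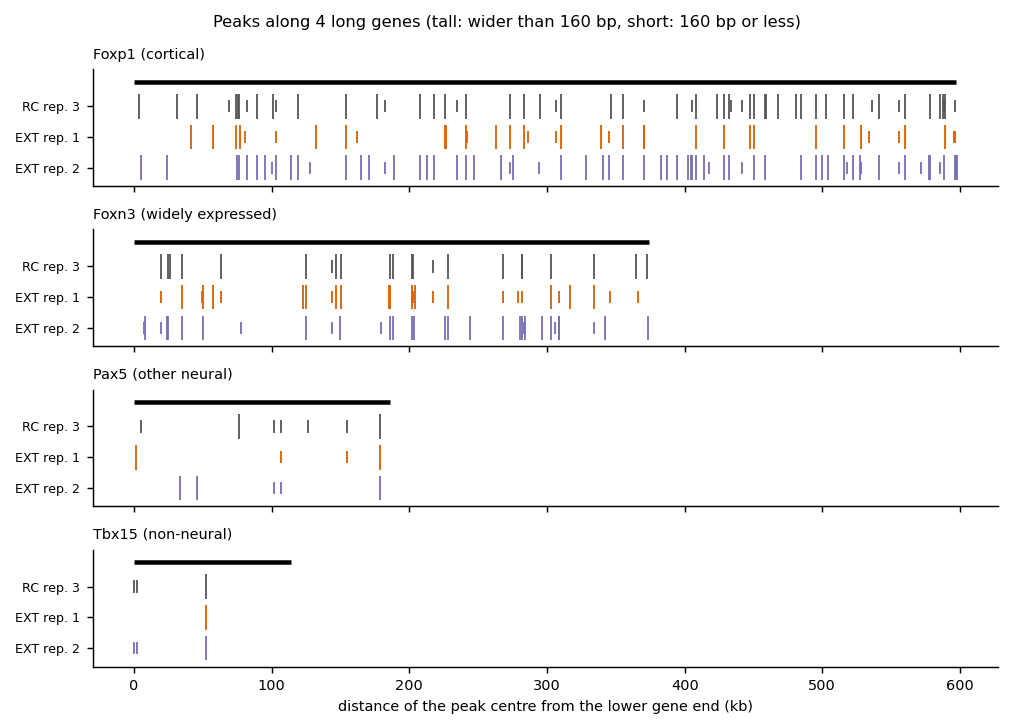
Peaks along Foxp1, Foxn3, Pax5 and Tbx15 by distance from the lower gene end (horizontal, kb) in the 3 libraries; the black bar is the gene, tall marks are wide peaks and short marks peaks of 160 bp or less. Foxp1 holds 57, 37 and 67 peaks over 597 kb and Pax5 7, 4 and 5 over 186 kb.

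On chromosome 1 the list of RC replicate 1 could be added. Pax3, a gene of the neural crest and dorsal neural tube, had a 160 bp end peak there at fold 21.4, with the same bounds (chr1:78196541-78196700) as in RC replicate 3 at fold 9.24 and EXT replicate 2 at fold 16.4. EXT replicate 1 had a 150 bp peak at that place with fold 4.18. Both RC and both EXT libraries that reach the gene thus had the peak, and none had a wide peak in its 95.9 kb. Tbx19 had no end peak in any of the 4 lists. It held 2 wide peaks within the gene in RC replicates 1 and 3 and in EXT replicate 2, and 0 in EXT replicate 1.

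Presence of an end peak was also set beside training. An end peak shared by the EXT libraries but missing from RC replicate 3 was seen at 1 gene (1.18%), against 2.01% of all protein-coding genes, and one in the RC library alone at 0 genes, against 1.06%. The 1 gene was Foxi1, of inner ear and kidney ion transport, with a 150 bp peak at fold 3.22 in EXT replicate 1 and a 238 bp peak at fold 4.62 in EXT replicate 2, at the percentiles 19.5 and 42.7 of their lists. Relative to all protein-coding genes of the same list, the end peak share was higher by 2.78 points in RC replicate 3, lower in EXT replicate 1 (−2.74) and higher by 3.58 in EXT replicate 2. The mean of EXT less RC was −2.36 points, smaller than the SD of 4.47 between the 2 EXT libraries, and there was 1 RC library, so no test was made. Without EXT replicate 1 the value turned to 0.796, and without EXT replicate 2 it was −5.52. Among these genes the 2 EXT libraries differed more from each other than their mean differed from the RC library. RC replicate 3 and EXT replicate 2 without EXT replicate 1, the shortest list, shared 10 genes (11.8% against 4.69% of all protein-coding genes): Foxn1, Foxa1, Pax2, Tbx15, Tbx3, Foxm1, Foxi2, Nkx6-2, Foxb1 and Foxo4.

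Genes for Polycomb subunits and for cofactors and relatives of these factors were looked at in the same way. The list of genes for Polycomb subunits also held the demethylase genes Kdm6a and Kdm6b. Of its 29 genes, 26, 24 and 28 had an end peak (89.7%, 82.8% and 96.6%), against 56.0%, 53.3% and 61.1% of all protein-coding genes. Wide end peaks were found at 25, 24 and 27 (86.2%, 82.8% and 93.1%), against 50.8%, 48.3% and 57.5%. The catalytic subunit gene Ezh2 had peaks of 569, 510 and 525 bp at fold 8.67, 5.95 and 16.9, and Eed, which binds the mark it writes, 817, 956 and 964 bp at fold 10.2, 9.92 and 10.1. In no list did Kdm6a, a demethylase gene that removes the mark, have an end peak. Genes for cofactors and relatives had end peaks at 10, 9 and 12 of 16 (62.5%, 56.2% and 75%) and wide ones at 9, 9 and 10 (56.2%, 56.2% and 62.5%), near the shares of all protein-coding genes. Wide peaks in all 3 lists stood at the Tle family genes Tle1, Tle3, Tle4 and Tle5 and at Ldb2 and Mga. They also stood at Zfpm1, a partner of Gata proteins (884, 832 and 915 bp at fold 8.39, 7.02 and 9.19), and at the cortical T-box gene Tbr1 (295, 419 and 269 bp at fold 2.95, 3.37 and 3.57). The T-box genes Eomes and T, of progenitors and mesoderm, the blood gene Tal1 and the cofactor gene Ldb1 had none in any list.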

How the data were processed

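The peak lists used came from 3 RC and 2 EXT libraries of ATAC-seq; EXT replicate 3 and the lncRNA capture libraries were not analysed here. Groups and replicates follow the sample titles; the list titled EXT replicate 2 is numbered 3 in its file header, so which EXT replicate it is remains in doubt, though not its group. Per the submitters' processing notes the build was mm10 and the tools included BWA 0.7.17 and MACS2 2.2.4; the aligner of the ATAC-seq reads is not given. Each library's peaks were called by the authors with MACS 2.2.4 and no control, per the file headers, with tags shifted by −75 bp, extended to 150 bp, all duplicates kept, at a q-value cutoff of 0.05. The deposited pileup is a coverage signal, whole numbers of tags at the summit. The deposited fold is a ratio, the pileup over local background. The deposited −log10 p and q values were used to rank peaks within a list, and −log10 q also served as a cutoff in the alternatives. Peak positions and widths were taken as the authors deposited them.

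Genes, spans and start windows came from RefSeq tables of GRCm38.p6, the assembly of mm10, and positions are 1-based. A peak was assigned by an overlap of at least 1 bp, in Python 3.11.15 with pandas 2.3.3 and numpy 2.4.6. The assignment was tested on simulated peaks. The genes, classes, marker lists and the limit of 160 bp were chosen with earlier results of these data known. Genes named in the text were all cortical, widely expressed and chromosome 1 members, those in 1 group's lists only, up to 6 per other class with an end peak in all or in no list, and the 5 with most peaks; others are named where a small count is listed, after their values were seen. A few genes that this rule selects or a list holds are counted but not reported here by name. Alternatives were windows of 500 bp and 2 kb, the 5′ end only, the summit, lists of equal length, −log10 q of 5 or more, peaks wider than 160 bp and other class lists. Chosen after seeing the data were limits of 163 and 200 bp, the removal of peaks near another gene or with recurring bounds, genes of 10 kb or longer, and Fox genes only.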

Additional observations from a re-analysis of the deposited data

How the results depend on the processing

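The end peak share of the 85 genes depended on the window and on peak width, in the order RC replicate 3, EXT replicate 1 and EXT replicate 2. It was 69.4%, 62.4% and 75.3% with 2 kb windows, 40.7%, 37.3% and 47.5% at the 5′ end of 59 genes, 35.3%, 30.6% and 48.2% with peaks wider than 160 bp and 30.6%, 27.1% and 42.4% with peaks wider than 163 bp. With 500 bp windows it was 45.9% in RC replicate 3 and 51.8% in EXT replicate 2. The wide share in RC replicate 3 was 47.1% with 2 kb windows. Relative to all protein-coding genes the share was lower in 16 of 30 values (−19.8 to 10.4 points), and the wide share in 27 of 27 (−20.9 to −3.39). The cortical less non-neural difference stayed above 0 in all 45 values (19 to 57.9 points), with 52.5 and 57.9 in RC replicate 3 and EXT replicate 1 for peaks wider than 163 bp; for wide peaks it was 33.6 to 65.7 over 33 values. EXT less RC, −2.36 points, turned to 0.5 at the 5′ end only, 2.04 for peaks wider than 160 bp and 1.57 for peaks wider than 163 bp, and ranged from −5.52 to 0.796 when 1 EXT library was left out; the cause was not tested. Span shares kept within their intervals. In EXT replicate 1, however, the span alone gave 65.9% against 66.5% of all protein-coding genes, so the share there was no longer above that of all genes. No paired analysis was possible because the complete lists, RC replicate 3 and EXT replicates 1 and 2, share no replicate number by their titles, and 1 if the file header of EXT replicate 2, which says 3, is followed. The lists hold no counts per region, so depth limits peaks in a way that was not measured, and 1 complete RC list allows no statement about training.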
